A study of Mus musculus with 11 samples.

Results

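The mitochondrial respiratory chain was followed across the 2 genomes that encode it in whole mouse colon. Its genes were taken as the protein-coding mouse genes whose symbols begin with Ndufa, Ndufb, Ndufc, Ndufs, Ndufv, Sdha, Sdhb, Sdhc, Sdhd, Uqcr, Cox4, Cox5, Cox6, Cox7, Cox8, Atp5 or mt-, which gave 111 of the 22836 genes measured. Of these, 98 lie in the nuclear genome and 13 in the mitochondrial genome. The nuclear genes comprised 86 subunits (37 of complex I, 4 of complex II, 8 of complex III, 19 of complex IV and 18 of complex V) and 12 assembly factors, which the prefixes Ndufa and Sdha bring in as Ndufaf and Sdhaf genes. Counted among the subunits are the complex V inhibitor Atp5if1 and Cox5b-ps, which has the symbol of a pseudogene but is annotated as protein coding. A further 4 annotated genes that fit the prefixes, Cox7b2 and Cox8c among them, had no row and were not analysed here. Polyadenylated RNA of the colon was sequenced as 3 libraries of Tfam fl/fl mice (control) and 8 of genotype Tfam fl/fl Cd4 Cre, of which 3 came from mice given no cells (non-transferred) and 5 from mice that received CD4 T cell therapy (transferred). All groups carry the floxed Tfam allele, and the Cd4-driven Cre deletes it in CD4 and CD8 T cells, so the respiratory chain of the other colon cells keeps an intact gene. The legends give 10 months as the age of mice in the transfer experiment, and the donors were 7-week-old mice whose CD4 T cells (6000000 to 7000000 per recipient) were not Tfam-deficient.

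Complexes I, III and IV pass electrons from NADH to oxygen and pump protons across the inner mitochondrial membrane, complex II feeds electrons in from succinate, and complex V uses the proton gradient to make ATP. Complexes I, III, IV and V combine subunits from both genomes, while complex II is wholly nuclear. TFAM packages mitochondrial DNA and starts its transcription, so cells that lose it lose the mitochondrial mRNAs. In the colon, surface epithelial cells oxidise butyrate made by the microbiota, and the muscle wall adds a second large store of mitochondria.

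The libraries held 18214741 to 19178986 reads in genes. The gene deleted in T cells, Tfam, did not separate the groups in whole colon (1083, 977 and 1018 normalized counts in control, 1054, 1102 and 1040.3 in non-transferred and 865, 1090.5, 1045, 1017 and 1086 in transferred). Cd4, whose promoter drives the Cre, was higher in non-transferred than in control colon (288, 263 and 358 against 49.9, 46.7 and 99.2, log2 fold change 2.27, SE 0.49, adjusted p = 0.00295) and ranged from 80.5 to 345 in transferred colon. All 10 epithelial markers of the tissue check were measured, with summed normalized counts of 575915 to 855556 in control, 382998 to 492373 in non-transferred and 491347 to 955030 in transferred colon, so that the sum was lower in every non-transferred library than in any control library. Of these markers 3 were called lower and 1 higher in non-transferred against control colon, that is 40% beside 45.5% of all genes tested. The median over the 10 was 0.06 on the log2 scale. The part of the epithelium in the results below was not tested. Of the 111 genes, 110 averaged at least 10 normalized counts over the 11 libraries and entered the tests. The exception was Cox6a2, the heart and skeletal muscle form of COX6A, with 1, 10 and 4 reads in all in the control, non-transferred and transferred groups. With no filter on low values Cox6a2 was called higher in non-transferred than in control colon (limma, log2 fold change 1.77, SE 0.52, adjusted p = 0.0175). Log2 fold changes below come from a limma fit of log2(normalized count + 1) over all 3 groups, and a gene was called at a Benjamini-Hochberg adjusted p under 0.05 over the 16781 genes tested.

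The balance between the genomes, summed over all 13 mitochondrial mRNAs, differed among the groups. The 13 mitochondrial mRNAs together gave 2.54, 2.12 and 3.21 times as many reads as the 86 nuclear subunits in the control libraries, 1.90, 1.39 and 1.53 times in the non-transferred libraries and 2.67, 2.24, 2.47, 2.07 and 2.30 times in the transferred libraries. Every non-transferred library lay below every library of the other groups, and the control and transferred libraries overlapped. The nuclear subunits took 1.97, 2.09 and 2.05% of the reads in control, 1.78, 1.81 and 1.89% in non-transferred and 1.71, 1.88, 1.81, 1.82 and 2.05% in transferred colon, a much narrower spread. These sums are a description and were not tested. Most of the gap in the ratio lay in one mRNA, mt-Co1, which supplied 64.1, 67.98 and 68.6% of the mitochondrial mRNA reads in control, 58.9, 54.1 and 51.9% in non-transferred and 60.7, 66.1, 63.7, 59.8 and 65.9% in transferred libraries. Over mt-Nd1, mt-Nd2, mt-Nd5, mt-Nd6 and mt-Cytb, which share little sequence with other genome regions, the ratio to nuclear subunits overlapped among all groups. It ran 0.578 to 0.839 in control, 0.539 to 0.658 in non-transferred and 0.639 to 0.874 in transferred libraries. Without mt-Co1 the mitochondrial mRNAs took 1.417 to 2.06, 1.15 to 1.395 and 1.428 to 1.79% of reads in the same order. Within complex IV, which contains mt-Co1, the mitochondrial to nuclear ratio averaged 7.38 ± 1.60 (SD, n = 3) in control, 4.05 ± 0.849 (n = 3) in non-transferred and 6.50 ± 0.662 (n = 5) in transferred colon. In complex I, the same ratio was 2.29 ± 0.467, 1.89 ± 0.197 and 2.32 ± 0.296, and in complex III it was 2.81 ± 0.539, 2.52 ± 0.223 and 2.79 ± 0.441, so that control libraries overlapped with both other groups. In complex I every non-transferred library (1.67 to 2.06) lay below every transferred library (2.10 to 2.80), and in complex III these groups overlapped.

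**Figure D1:**
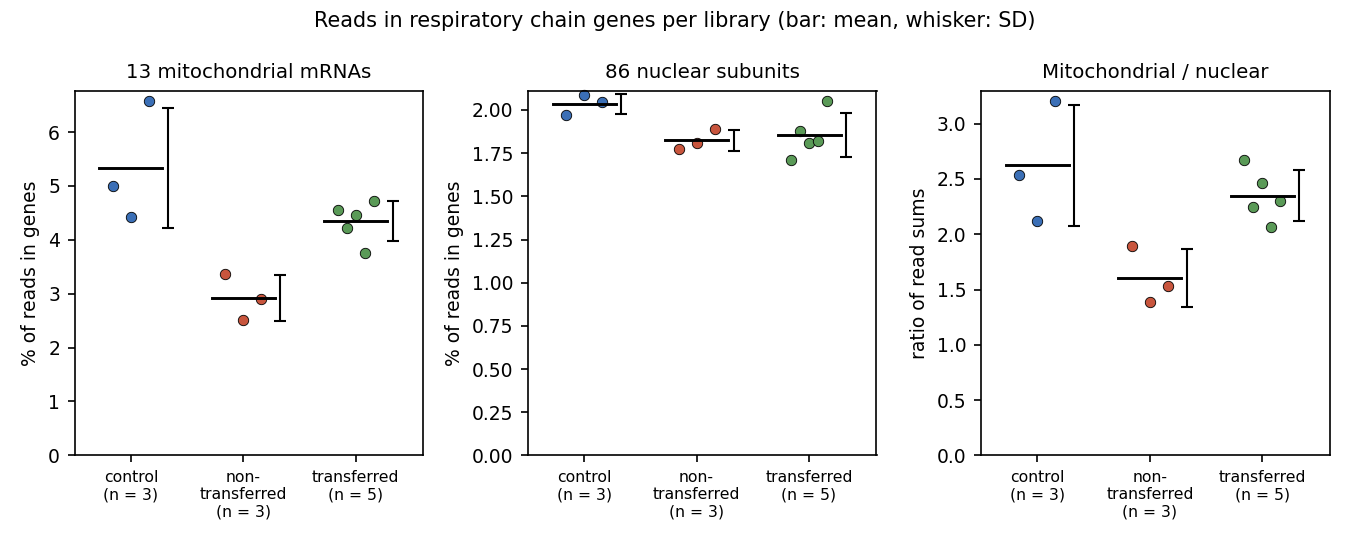
Reads of the 13 mitochondrial mRNAs and of the 86 nuclear subunits as a percent of reads in genes, and the ratio of the sums, with 1 point per library, the group mean (bar) and SD (whisker). The 3 non-transferred libraries have the lowest ratios, 1.39 to 1.90, while control libraries span 2.12 to 3.21 and transferred libraries 2.07 to 2.67.

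The first comparison, non-transferred against control colon, sets whole colon of mice with Tfam-deficient T cells against that of control mice. The libraries hold the T cells themselves together with all other colon cells, so a fold change cannot be assigned to either. Among 97 nuclear genes tested, 14 were called lower and 2 higher in non-transferred colon, and 4 of the 13 mitochondrial mRNAs were called, all lower. Over all 16781 genes, 45.5% were called in this comparison, 22.7% higher and 22.9% lower, beside 16.5% of the nuclear and 30.8% of the mitochondrial genes called here; the difference between these shares was not tested. A negative log2 fold change was seen in 82 of the 97 nuclear genes and all 13 mitochondrial mRNAs, beside 8227 of the 16781 genes tested. The medians were -0.18 and -0.45 against 0.02 over all genes. These genes share the same libraries and scaling, so their signs are not independent, and the lean was not tested. Every non-transferred library lay below every control library for 32 nuclear genes and 6 mitochondrial mRNAs, and above for 4 nuclear genes and no mitochondrial mRNA. In all genes tested these shares were 27.9% below and 29% above. The counts shift with the scaling: with factors from nuclear genes alone 37 nuclear genes were called lower and 8 mitochondrial mRNAs, quantile normalization called 33 nuclear genes lower, and DESeq2 called 22 and 8. Leaving out control replicate 2 or 3 or non-transferred replicate 1 or 3 brought the nuclear genes called lower down to 6, 7, 5 and 5.

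By complex, the median log2 fold change in non-transferred colon was -0.20 for the 37 nuclear subunits of complex I (33 negative, 2 called lower), -0.24 for the 4 of complex II (3 negative), -0.13 for the 8 of complex III (8 negative), -0.23 for the 18 tested of complex IV (17 negative, 7 called lower and 1 higher) and -0.10 for the 18 of complex V (13 negative, 1 called lower). In complex V the gene called was the inhibitor Atp5if1, counted with the subunits. Complex IV held 8 of the 11 nuclear subunits called, and its share called was 44.4%, beside 45.5% of all genes. The shift of the other complexes was small, and the fold changes of nuclear subunits other than the tissue-limited forms described next spanned -0.49 to 0.48.

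**Figure D2:**
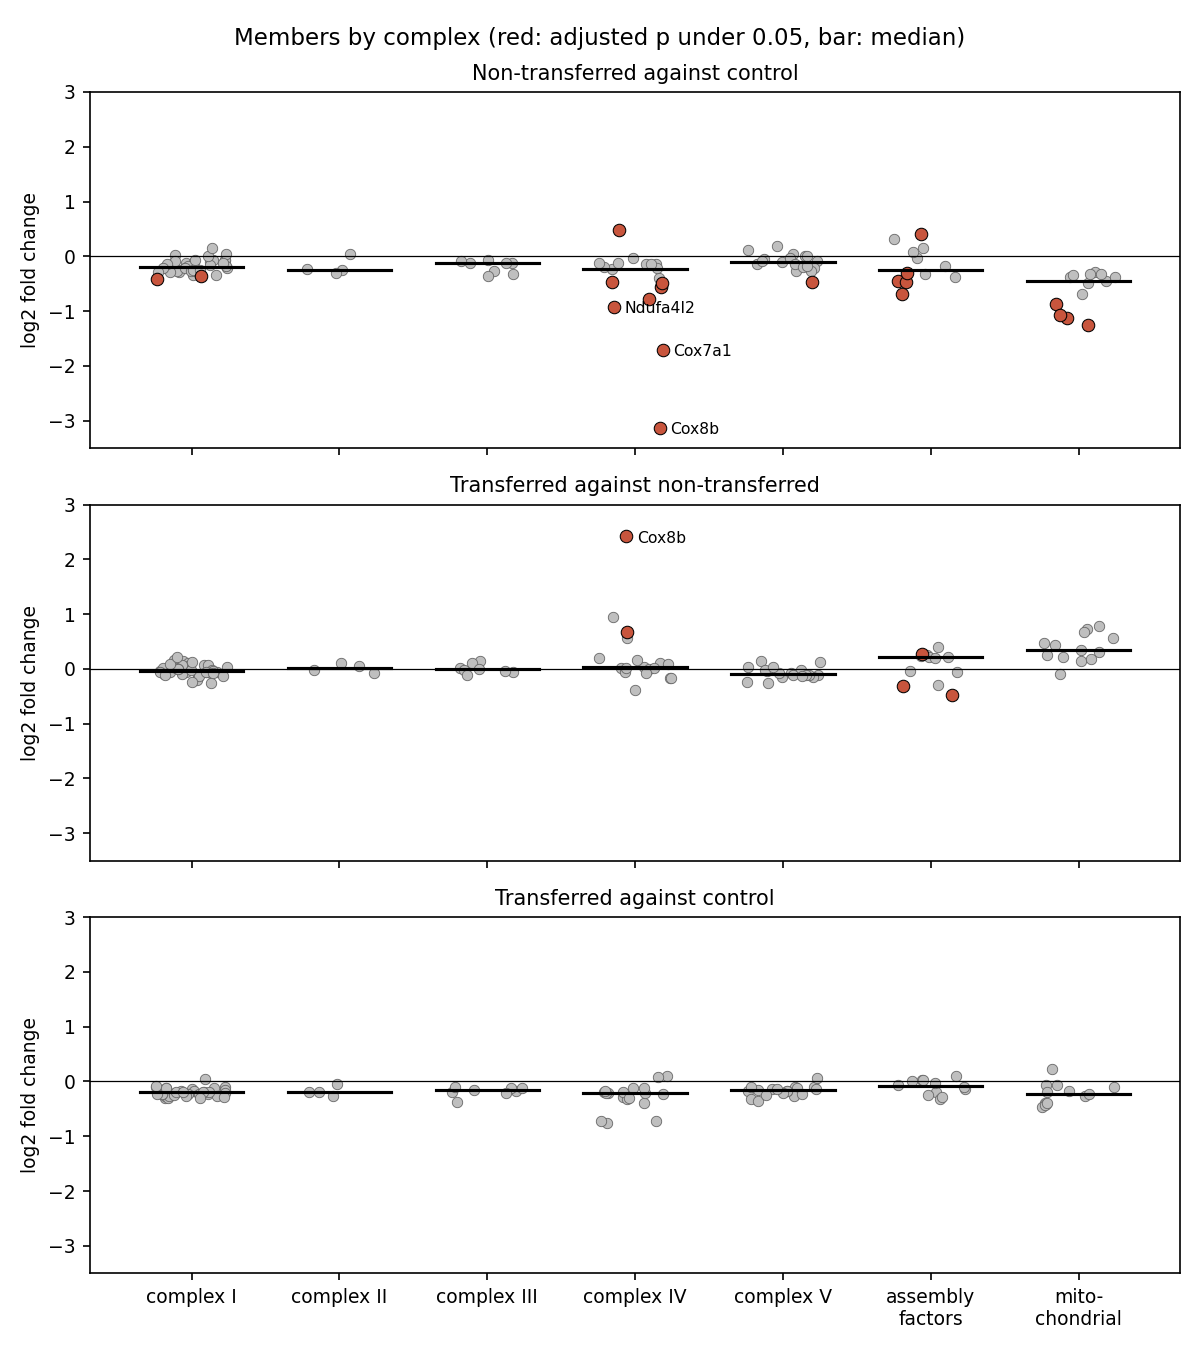
Log2 fold changes of the 110 genes tested, by complex for nuclear subunits and in separate columns for assembly factors and mitochondrial mRNAs, in the 3 comparisons. Red points are genes with an adjusted p under 0.05, and bars are medians. Of the nuclear genes in non-transferred against control colon, Cox8b (-3.14), Cox7a1 (-1.71) and Ndufa4l2 (-0.92) lie furthest below 0, and none of the 110 genes is red in transferred against control colon.

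Several complex IV subunits exist as paralogs, a form made in most tissues and a form limited to some. The 5 tissue-limited forms that passed the filter were called lower in non-transferred colon, while Cox6a2, the form that did not pass, had its few reads mostly there, so their count describes only the genes tested. Each of the 5 had all its non-transferred libraries below all its control libraries. Cox7a1 (chromosome 7), the heart and skeletal muscle form of COX7A, had normalized counts of 340.0, 379.7 and 584 in control, 105, 128 and 159.9 in non-transferred and 154, 269.6, 257, 142 and 619.9 in transferred colon. The control and non-transferred libraries did not overlap (log2 fold change -1.71, SE 0.45, adjusted p = 0.0094). Transferred libraries ranged from the non-transferred level to above the highest control library, through the single library at 619.9. Its paralog Cox7a2, the form of most tissues, stood at 3659, 4287 and 4346 in control and 3633, 3825 and 4520.3 in non-transferred colon, with overlapping groups (log2 fold change -0.04, SE 0.13, adjusted p = 0.821, 95% interval -0.32 to 0.24). Cox7a2l, the third relative, which takes part in joining complexes III and IV, likewise overlapped (log2 fold change -0.13, interval -0.36 to 0.10).

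Cox8b (chromosome 7), the form of COX8 in heart, skeletal muscle and brown fat of the mouse, fell furthest. It had normalized counts of 14.1, 18.9 and 27.6 in control, 1.96, 0 and 3.29 in non-transferred and 10.95, 15.1, 15.7, 4.76 and 15.3 in transferred colon. These are low counts, 59, 5 and 62 reads summed over the groups, and the gene reached the filter's mean of 10 through the control and transferred libraries alone. The control and non-transferred libraries did not overlap (log2 fold change -3.14, SE 0.58, adjusted p = 0.0012), and the log2 fold change was -1.35 with a pseudocount of 10. The common form Cox8a had 10195, 10305 and 12055 in control and 9359.8, 9189 and 10877 in non-transferred colon, which overlapped (log2 fold change -0.15, interval -0.42 to 0.12).

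Cox4i2 (chromosome 2), an oxygen-responsive form of COX4 known from lung and vascular mural cells, had 36.7, 38.8 and 40.8 in control and 23.5, 25.2 and 18.6 in non-transferred colon (log2 fold change -0.77, SE 0.23, adjusted p = 0.0183). The common Cox4i1 was also lower in each non-transferred library (17456, 16379.6 and 20086 against 21458, 24123 and 24839.6), but did not pass the threshold (log2 fold change -0.39, adjusted p = 0.0756). Cox6b2, known as the testis form of COX6B, had 121, 120.3 and 130.1 in control and 78.3, 73.6 and 99.6 in non-transferred colon (log2 fold change -0.57, SE 0.20, adjusted p = 0.0331), and Cox6b1 overlapped between the groups (log2 fold change -0.20). Ndufa4l2, a hypoxia-induced relative of Ndufa4, had 40.5, 38.8 and 36.4 in control and 14.7, 19.4 and 27.4 in non-transferred colon (log2 fold change -0.92, SE 0.29, adjusted p = 0.0222). Ndufa4 itself, a complex IV subunit once assigned to complex I, moved the other way: it rose from 2063, 1928 and 1509 to 2183, 2715 and 2745 (log2 fold change 0.48, SE 0.17, adjusted p = 0.0335). Both genes of that pair had non-overlapping groups, in opposite directions. AA467197, a further relative of Ndufa4 that was picked for mention after its values were seen, was not called (log2 fold change -0.17, interval -0.54 to 0.20). The call for Ndufa4 was lost with factors from nuclear genes alone, quantile normalization, no variance trend and the replicate block, that for Cox6b2 with quantile normalization and the block, and that for Ndufa4l2 with quantile normalization. With 1 library left out at a time, the calls for Cox7a1 and Cox8b held in all 11 fits (log2 fold changes -1.86 to -1.47 and -3.57 to -2.52). These fits kept the filter of the full set of libraries, so that Cox8b could not drop out of them. The call for Cox6b2 was lost without control replicate 1, 2 or 3 or non-transferred replicate 1 or 3 (-0.70 to -0.48), that for Ndufa4 without control replicate 2 or 3 or non-transferred replicate 3 or 4 (0.35 to 0.59), that for Ndufa4l2 without control replicate 1 or 2 or non-transferred replicate 1 or 3 (-1.14 to -0.72), and that for Cox4i2 without control replicate 3 or non-transferred replicate 4 (-0.86 to -0.65).

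**Figure D3:**
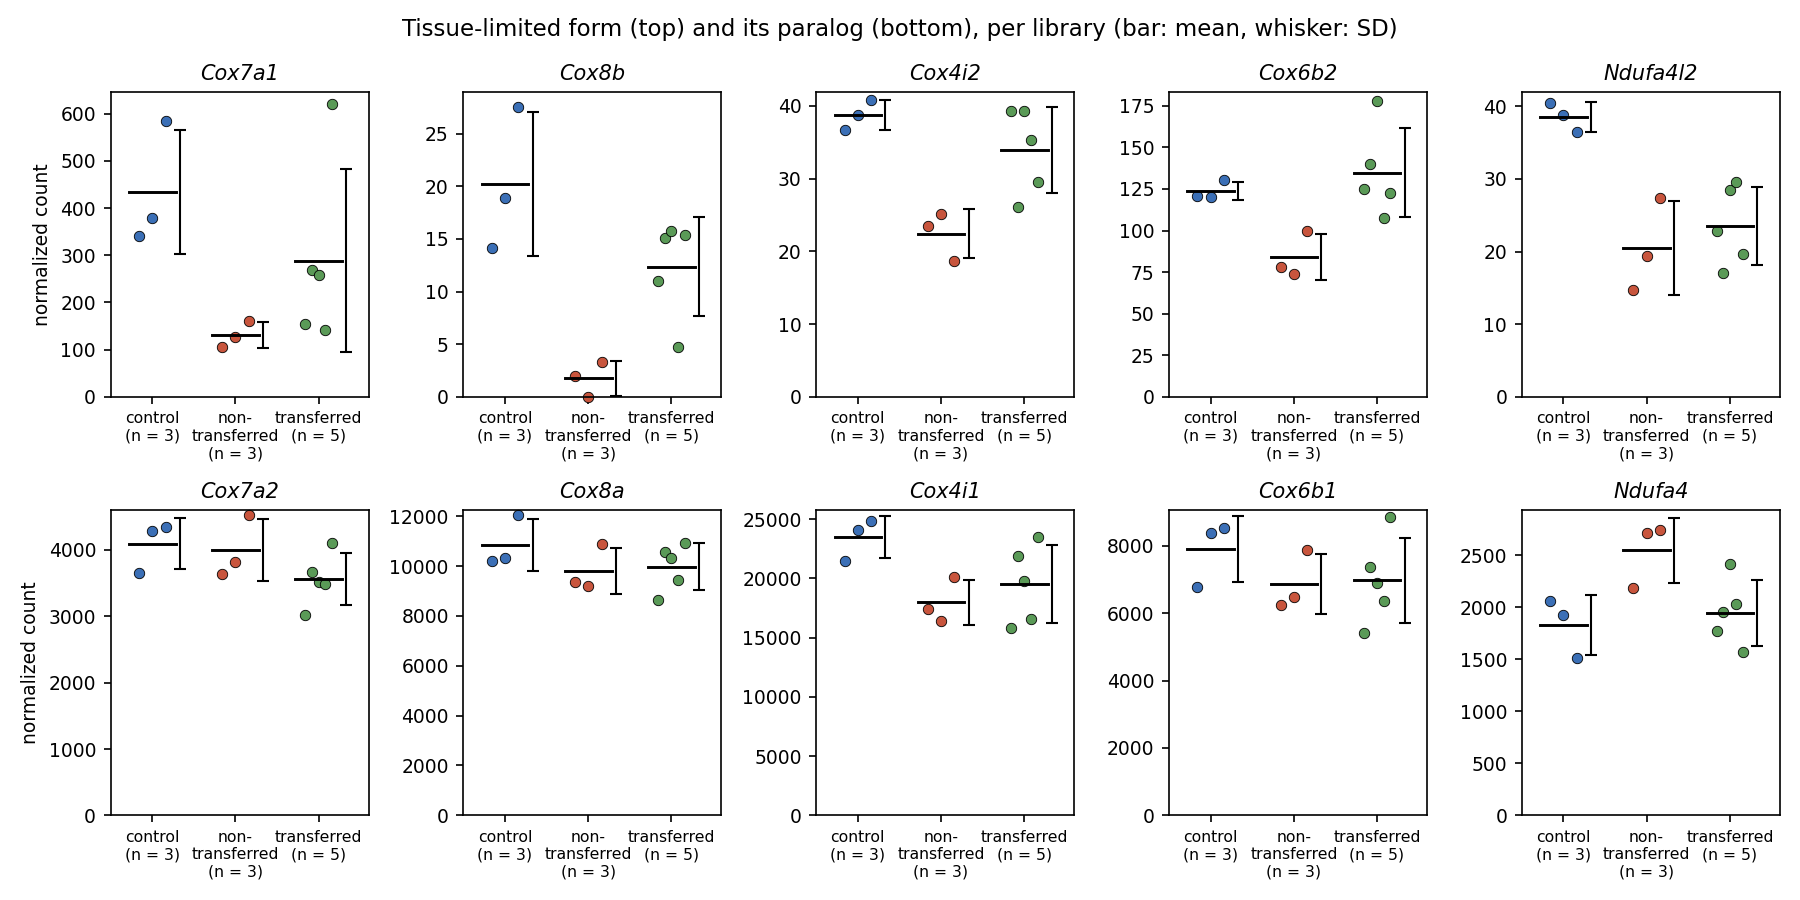
Normalized counts of 5 tissue-limited forms (top) and the paralog found in most tissues (bottom), 1 point per library, with group mean (bar) and SD (whisker); each axis starts at 0 and has its own scale. The top genes are lower in all 3 non-transferred libraries than in all 3 control libraries, while Cox7a2, Cox8a and Cox6b1 overlap and Ndufa4 is higher.

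Marker genes of many cell types also differed between non-transferred and control colon. Of all genes tested, 45.5% were called in this comparison, 22.7% higher and 22.9% lower. All 10 smooth muscle markers were called lower in non-transferred colon, with summed normalized counts of 230534 to 289543 in control, 33378 to 48722 in non-transferred and 100275 to 162112 in transferred libraries. The 8 white fat cell markers were all called lower, from 4016 to 14244 in control to 709 to 1785 in non-transferred colon, and stood at 4326 to 9373 in transferred colon. Of the 5 pericyte markers 3 of 4 tested were called lower (11753 to 15179 against 2596 to 4040.2 in sum). For skeletal or cardiac muscle, 3 of 4 tested were called lower, with sums of 1301 to 1665 against 181 to 297, most of it from Ckm, while the defining myosins Myh1 and Myh4 had no row. Of the 5 brown fat markers, a list that holds Cox8b itself, Ucp1 had no row and the other 4 summed to 182 to 257 against 72.3 to 122. Other cell types moved as well. All 10 T cell markers were called higher in non-transferred colon (sums of 356 to 433 in control, 1801 to 1882 in non-transferred and 673 to 2066 in transferred libraries), as were all 6 neutrophil markers tested (21.9 to 30.9, 1624 to 4914 and 35.2 to 276), all 6 of B and plasma cells (7058 to 10920.0, 22508 to 28953 and 12843 to 21304) and 5 of 7 of macrophages (1997 to 2923, 6162 to 6538 and 2771 to 5396). Of 8 markers of enteric neurons and glia 7 were called lower (1286 to 2278, 357 to 647 and 778 to 1579). For fibroblasts 2 of 6 and for endothelium 2 of 5 were called, all lower. These shares, 33.3 and 40%, stand beside 45.5% of all genes called in either direction. The part of any of these cell types in the results was not tested, and in bulk tissue fewer cells of a type and less RNA per cell cannot be told apart. Transferred replicate 5, the library highest in Cox7a1, had smooth muscle and white fat sums of 138481 and 4326, within and at the low end of its group. Its skeletal or cardiac muscle sum was 806, within its group, and its epithelial sum (955030.0) was the highest of all libraries. Whether any of these sums bears on its Cox7a1 count was not tested.

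**Figure D4:**
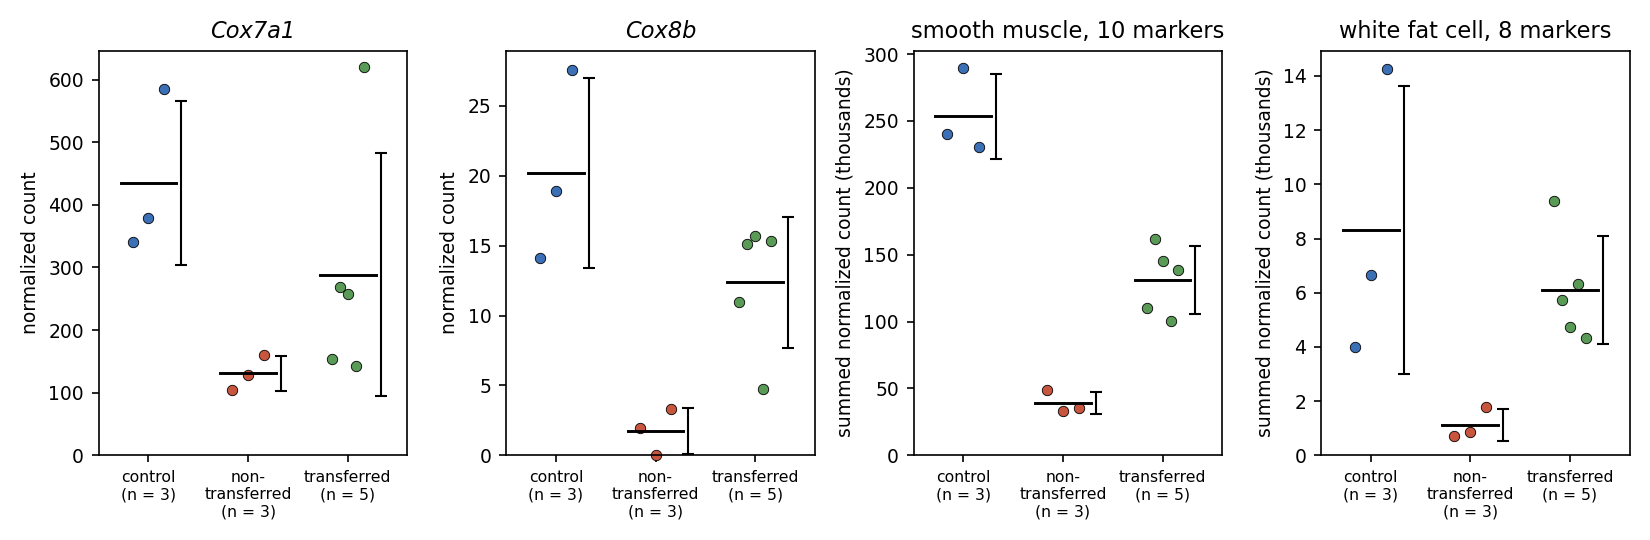
Normalized counts of Cox7a1 and Cox8b beside the summed normalized counts of 10 smooth muscle and 8 white fat cell markers, 1 point per library, with group mean (bar) and SD (whisker). Cox8b and both marker sums are lower in every non-transferred library than in any other library. The same holds for the sums of skeletal or cardiac muscle, brown fat, pericyte and enteric neuron and glia markers, which are not drawn. Cox7a1 overlaps between non-transferred and transferred libraries.

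Among the 80 nuclear subunits tested other than the tissue-limited forms, 5 were called lower and 1, Ndufa4, higher. That is 7.5% called, beside 45.5% of all genes. The 5 fell by smaller steps, the complex V inhibitor Atp5if1 among them. Ndufs7, the complex I core subunit that carries the last iron-sulfur cluster before ubiquinone, had 2359.6, 2349 and 2442 normalized counts in control and 1637, 1819 and 2152 in non-transferred colon (log2 fold change -0.36, SE 0.11, adjusted p = 0.0176). Cox6a1, the common form of COX6A, had 10599, 11965 and 13361 and 8233, 8115 and 9460.0 (log2 fold change -0.47, SE 0.17, adjusted p = 0.036). Atp5if1, the inhibitor that keeps complex V from running in reverse, had 4549.6, 5969 and 5015 and 3768, 3279 and 4147 (log2 fold change -0.47, SE 0.17, adjusted p = 0.0365). The groups did not overlap for any of them, and control was higher. Every non-transferred library lay below every control library for 21 of the 80 subunits and above for 1. The shares over all genes were 27.9% below and 29% above. Ndufa7 of complex I and Cox6c of complex IV, which are named only because they complete the list of called genes, had log2 fold changes of -0.41 and -0.49 (adjusted p = 0.0222 and 0.0393). Sdha and Sdhb, the catalytic subunits of complex II, were lower in each non-transferred library than in each control library but were not called (log2 fold change -0.25 and -0.30, adjusted p = 0.146 and 0.0608). Leaving out control replicate 2 or 3 or non-transferred replicate 1 or 3 removed the calls for Cox6a1, Atp5if1, Ndufa7 and Cox6c, and leaving out non-transferred replicate 1 or 3 that for Ndufs7, with log2 fold changes of -0.56 to -0.39, -0.56 to -0.36, -0.47 to -0.36, -0.61 to -0.41 and -0.47 to -0.27 over all such fits. Cox6c also lost its call without non-transferred replicate 4 or transferred replicate 3, and Cox6c and Atp5if1 lost theirs with no variance trend.

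Of the 12 assembly factors, which build complexes I and II without staying in them, 4 were called lower and 1 higher, that is 41.7% beside 45.5% of all genes. The median log2 fold change was -0.24. Sdhaf4, which hands flavinylated SDHA on to SDHB, had 243, 273 and 245 in control, 173, 164 and 136 in non-transferred and 162, 209, 244, 191 and 246 in transferred colon. The non-transferred libraries were all below the control libraries (log2 fold change -0.69, SE 0.17, adjusted p = 0.00711). Ndufaf1, which acts on the membrane arm of complex I, had 322, 292 and 321 in control and 226, 215 and 242 in non-transferred colon, again without overlap (log2 fold change -0.45, SE 0.12, adjusted p = 0.00884). Both calls held without any 1 library. Ndufaf4, a partner of Ndufaf3 in the same pathway, rose from 450.3, 422 and 492 to 596, 593 and 618 (log2 fold change 0.41, SE 0.12, adjusted p = 0.0134). Ndufaf3 had a log2 fold change of -0.46 (adjusted p = 0.036), opposite in sign to that of its partner, and Ndufaf7, a further complex I assembly factor, one of -0.31 (adjusted p = 0.0253). The call for Ndufaf4 was lost without control replicate 2 (0.36 to 0.46 over such fits), that for Ndufaf3 without control replicate 2 or 3 or non-transferred replicate 1 or 3 (-0.56 to -0.34), and that for Ndufaf7 without control replicate 1 or 2 or any non-transferred library (-0.36 to -0.27) and also with the replicate block.

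Several mitochondrial mRNAs hold sequence that also occurs elsewhere in the genome. The nuclear genome of the mouse reference holds a copy of mitochondrial DNA on chromosome 1 (chr1:24650616-24655265, minus strand, GRCm39) that matches bases 6394 to 11042 of the mitochondrial genome, from the end of mt-Co1 into mt-Nd4. Over those 4649 bases the copy has 1 extra base in the tract between mt-Nd3 and mt-Nd4l and 1 base that differs, T9461C (mitochondrial base, position in the mitochondrial genome, base of the copy). The stretch around that difference, near the start of mt-Nd3, is shown with the differing base in capitals, the copy being read on its minus strand from 24652228 down to 24652168.
mtDNA, 9431 to 9491: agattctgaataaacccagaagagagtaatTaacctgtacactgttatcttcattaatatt
copy on chromosome 1: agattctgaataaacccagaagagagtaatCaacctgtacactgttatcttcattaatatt
The whole of mt-Atp8 (bases 7766 to 7969, plus strand) is shown because all of it occurs unchanged in the copy (chr1:24653690-24653893); capitals mark the 43 bases it shares with mt-Atp6, whose reading frame starts before that of mt-Atp8 ends.
mt-Atp8: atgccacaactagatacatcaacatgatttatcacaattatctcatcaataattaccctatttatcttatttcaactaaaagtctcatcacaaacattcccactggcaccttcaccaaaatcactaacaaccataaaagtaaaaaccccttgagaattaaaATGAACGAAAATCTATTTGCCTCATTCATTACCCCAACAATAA
Of all 100-base windows of an mRNA, the share also present elsewhere in GRCm39 was 100% for mt-Co2, mt-Atp8, mt-Atp6, mt-Co3 and mt-Nd4l, 98.8% for mt-Nd3, 60.8% for mt-Nd4, 30.8% for mt-Co1, 3.19% for mt-Nd2 and 0% for mt-Nd1, mt-Nd5, mt-Nd6 and mt-Cytb. In control colon mt-Co1 had 431771 reads per kb, mt-Cytb 104070, mt-Nd1 89479, mt-Nd2 31353, mt-Nd4 27079 and mt-Nd5 21996 reads per kb, whereas the 6 mRNAs with at least 98.8% of windows elsewhere had 147 (mt-Nd4l) to 10519 (mt-Co2) reads per kb. Windows did not order the levels throughout, since mt-Nd6, the only mRNA of the light strand, had no window elsewhere and 437 reads per kb. The table lists genes of the copy as well: Gm28661, opposite mt-Co2, averaged 3245 normalized counts in control colon against 7439 for mt-Co2 itself, Gm28437 3246 against 3744 for mt-Co3, and Atp6-ps 3692 against 2388 for mt-Atp6. The sources used here do not say how reads with several places were counted, and the levels of these 6 mRNAs are uncertain.

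All 13 mitochondrial mRNAs had a negative log2 fold change in non-transferred colon, from -1.25 (mt-Nd6) to -0.29 (mt-Nd3). The mRNA of the catalytic core of complex IV, mt-Co1, had 573221, 568223 and 905276 normalized counts in control, 367622, 251898 and 304137 in non-transferred and 478223, 519361, 515761, 402561 and 625306 in transferred colon. The 3 non-transferred libraries were the lowest of all 11 (log2 fold change -1.13, SE 0.37, adjusted p = 0.0255). Without control replicate 3, the highest library, the log2 fold change of mt-Co1 was -0.91 (adjusted p = 0.0797). For mt-Nd6, a membrane subunit of complex I, the counts were 267, 146 and 276 in control and 83.2, 53.3 and 176 in non-transferred colon, so that 1 non-transferred library lay above the lowest control library (log2 fold change -1.25, SE 0.38, adjusted p = 0.0196). mt-Co3 had 2631, 2803 and 5797 and 2224, 1730.2 and 1832 (log2 fold change -0.87, SE 0.26, adjusted p = 0.0181), and mt-Atp8 had 172, 89.5 and 195 and 74.4, 50.4 and 84.3 (log2 fold change -1.07, SE 0.31, adjusted p = 0.0142), both without overlap but wholly within the copied stretch. The other 9 were not called, with log2 fold changes of -0.70 for mt-Co2, -0.50 for mt-Nd1, -0.45 for mt-Nd5, -0.38 for mt-Nd2, -0.37 for mt-Atp6, -0.34 for mt-Nd4l, -0.32 for mt-Nd4, -0.32 for mt-Cytb and -0.29 for mt-Nd3. Among the 5 with at most 5% of windows elsewhere the median was -0.45, the same as over all 13, and 1 was called. mt-Atp8 lost its call without control replicate 1 or 3 or non-transferred replicate 3, mt-Nd6 without those or non-transferred replicate 1, mt-Co3 without non-transferred replicate 3 or 4, and mt-Co1 also without non-transferred replicate 3 or 4 (log2 fold changes -1.42 to -0.86, -1.71 to -0.86, -1.07 to -0.50 and -1.27 to -0.91). The call for mt-Co1 was further lost with a pseudocount of 10, with quantile normalization (log2 fold change -0.74) and with only the groups compared, and that for mt-Co3 with the replicate block (-0.79). Of the mRNAs not called, mt-Co2 moved to -0.30, mt-Nd5 to -0.25, mt-Nd2 to -0.23, mt-Cytb to -0.16, mt-Nd4l to -0.16, mt-Nd4 to -0.15 and mt-Atp6 to -0.11 without control replicate 3, and mt-Nd3 to -0.09 without non-transferred replicate 3. The number called was 8 without control replicate 2, 1 without control replicate 3 and 0 without non-transferred replicate 3.

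The ribosomal RNAs of the same genome, which are no messengers and were not counted among the genes above, showed larger differences; they are named here because of their values. mt-Rnr2, the large rRNA, had 19751, 22883 and 20852 in control, 7978, 5361 and 5531 in non-transferred and 10388, 15726, 20823, 9876 and 12209.8 in transferred colon (log2 fold change -1.77, SE 0.26, adjusted p = 0.000282 for non-transferred against control). mt-Rnr1, the small rRNA, had a log2 fold change of -1.54 (adjusted p = 0.000807). Libraries were made from polyadenylated RNA, and whether the capture of such RNA differed among libraries was not tested.

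**Figure D5:**
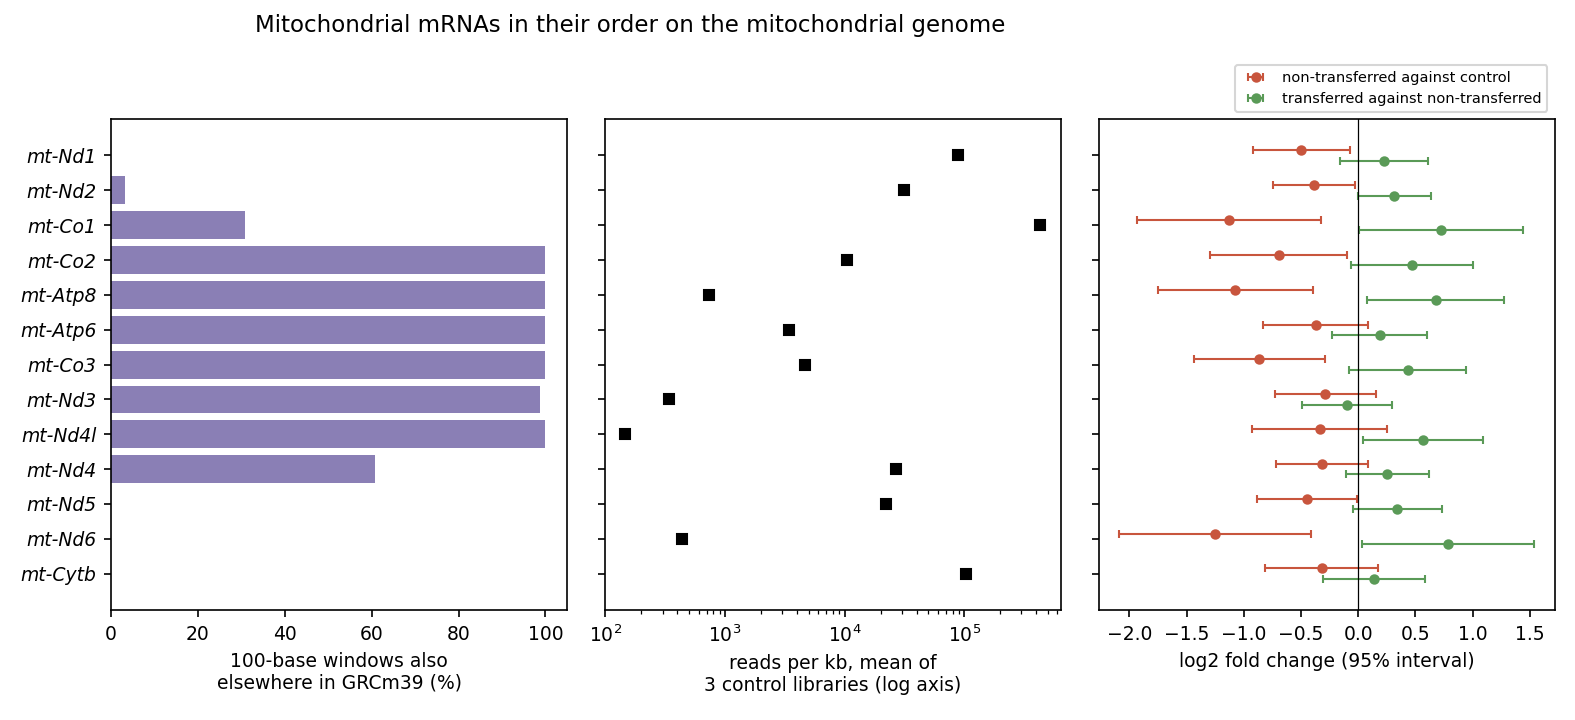
The 13 mitochondrial mRNAs in genome order: share of 100-base windows found elsewhere in GRCm39 (left), reads per kb in control colon on a log axis (middle), and log2 fold changes with 95% intervals (right). The 6 mRNAs from mt-Co2 to mt-Nd4l are shared almost wholly with other places, and fold changes are below 0 for all 13 in non-transferred against control colon and above 0 for all but mt-Nd3 in transferred against non-transferred colon.

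The second comparison, transferred against non-transferred colon, addresses the effect of CD4 T cells given to Tfam fl/fl Cd4 Cre mice. It shares the non-transferred libraries with the first, so opposite signs in the 2 comparisons are not independent. Among 97 nuclear genes 3 were called higher and 2 lower, against 17% of all genes higher and 14.2% lower (31.2% in either direction). With factors from nuclear genes alone the split was 7 higher and 1 lower, and the other scalings and tools gave 3 to 5 higher and 1 or 2 lower. Without non-transferred replicate 3, 1 nuclear gene was called higher and 1 lower. Leaving out control replicate 1 or transferred replicate 1, 2 or 4 left 1 nuclear gene called lower, leaving out non-transferred replicate 4 left none, and leaving out transferred replicate 3 or 5 gave 4. All transferred libraries lay above all non-transferred libraries for 4 nuclear genes and below for 2, where the shares over all genes were 17.6% above and 16.6% below. The median log2 fold change of the nuclear genes was -0.02, as over all genes, and turned to 0.06 with factors from nuclear genes alone and 0.03 with quantile normalization.

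The 3 genes called higher were Cox8b (10.95, 15.1, 15.7, 4.76 and 15.3 against 1.96, 0 and 3.29, log2 fold change 2.42, SE 0.52, adjusted p = 0.00522), Cox6b2 (125, 139.8, 178, 108 and 123 against 78.3, 73.6 and 99.6, log2 fold change 0.67, SE 0.17, adjusted p = 0.0139) and the assembly factor Ndufaf7 (log2 fold change 0.27, adjusted p = 0.0372). Transferred libraries were above non-transferred libraries without overlap in each. Cox8b had 5 reads in all in non-transferred colon and reached the filter's mean through the control and transferred libraries alone. Its call, its lack of overlap and its place in the count of genes called higher therefore rest on that filter and on very few reads. Quantile normalization did not call Cox8b. Cox4i2 also did not overlap (39.2, 26.2, 39.3, 35.3 and 29.6 in transferred colon) but missed the threshold (log2 fold change 0.57, adjusted p = 0.0577). Cox7a1 overlapped (log2 fold change 0.94, adjusted p = 0.0966). Its log2 fold change was 0.61 (adjusted p = 0.109) without transferred replicate 5, and without transferred replicate 4 it was called higher (1.14, adjusted p = 0.0468). The assembly factors Ndufaf8, a partner of NDUFAF5, and Ndufaf4 were called lower. Ndufaf8 had 354, 385 and 503 in non-transferred and 258, 306, 295, 295 and 321 in transferred colon (log2 fold change -0.47, SE 0.14, adjusted p = 0.0218), and Ndufaf4 had 501, 476, 561, 414 and 492 in transferred colon (log2 fold change -0.31, SE 0.10, adjusted p = 0.0414). Both were lower in every transferred library, and over fits that left out 1 library the values ran -0.58 to -0.33 and -0.36 to -0.25. The call for Ndufaf8 was lost without non-transferred replicate 4, that for Ndufaf4 without control replicate 1, any non-transferred library or transferred replicate 1, 2, 4 or 5, that for Ndufaf7 without any non-transferred library or transferred replicate 1 or 3 (0.25 to 0.30) and that for Cox6b2 without non-transferred replicate 3 (0.56 to 0.80). Ndufaf4 and Ndufaf7 also lost their calls with no filter, with only the compared groups in the fit and with the replicate block, and Ndufaf4 with factors from nuclear genes alone, quantile normalization and no variance trend.

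In the mitochondrial genome 12 of 13 mRNAs had a positive log2 fold change in transferred against non-transferred colon, beside 8111 of the 16781 genes tested. Their median was 0.34. All transferred libraries lay above all non-transferred ones for 5 of the 13 (17.6% of all genes): mt-Nd2, mt-Nd5, mt-Co1, mt-Co2 and mt-Atp8. limma called none of them, with 4 at an unadjusted p under 0.05, while edgeR and DESeq2 on the recovered reads called 1 each. The largest values were 0.79 for mt-Nd6 (interval 0.04 to 1.54) and 0.73 for mt-Co1 (interval 0.01 to 1.44). Leaving out control replicate 3, which enters the shared estimate of spread, gave 2 calls, and leaving out control replicate 2 or non-transferred replicate 4 gave 1. mt-Nd3 stood at -0.10. The rRNA mt-Rnr2 was called higher (log2 fold change 1.10, SE 0.23, adjusted p = 0.00473).

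The third comparison, transferred against control colon, measures how far the recipients remained from mice with intact T cells. limma called none of the 110 respiratory chain genes, against 1.6% of all genes, with 15 at an unadjusted p under 0.05, all of them nuclear, and edgeR and DESeq2 also called none. With the replicate number as a block, limma called 5 nuclear genes lower (adjusted p of 0.0321 to 0.0442). They were Cox7a1 (-1.06), Cox6c (-0.50), Uqcrfs1 (-0.50), Atp5mj (-0.46) and Cox5a (-0.43). The labels do not say what equally numbered libraries share. In the fit without the block 89 of 97 nuclear genes had a negative log2 fold change, beside 8600 of the 16781 genes tested. The median of the nuclear genes was -0.19 against -0.01 over all genes, and that of the mitochondrial mRNAs was -0.23. In the per-library medians over nuclear subunits, set against the control mean, the transferred libraries ran from -0.43 to 0.06 on the log2 scale and the control libraries from -0.12 to 0.08, so that the groups overlapped. The same medians were -0.25, -0.24 and -0.05 in the non-transferred libraries. Without transferred replicate 5 Cox7a1 was called lower than control (log2 fold change -1.09, adjusted p = 0.0465), against -0.76 and an adjusted p of 0.321 with it.

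Genes that serve the chain without belonging to it were read from lists. Of 37 further assembly factors and carriers tested, 6 were called lower and 1 higher in non-transferred against control colon, which is 18.9% beside 45.5% of all genes, with a median log2 fold change of -0.17 beside 0.02. Surf1, a complex IV assembly factor, had a log2 fold change of -0.64 (adjusted p = 0.000658), Lyrm7, which guards the Rieske protein before it enters complex III, -1.04 (adjusted p = 0.00137) and Uqcc1 -0.44 (adjusted p = 0.00224). Acad9, which combines fatty acid oxidation with complex I assembly, rose by 0.47 (adjusted p = 0.00486). In transferred against non-transferred colon 13.5% were called beside 31.2% of all genes. Of these 4 were higher, Lyrm7 (0.88), Surf1 (0.47) and Uqcc1 (0.28) with the smallest adjusted p, and Acad9 (-0.35) was called lower. Of 13 genes of coenzyme Q synthesis, 5 were called lower and 1 higher in non-transferred colon (46.2%, a share near that of all genes, median -0.32), with Coq8a at -1.55, Coq9 at -0.43 and Coq10a at -0.60, and Pdss1 at 0.63 was the one that rose. In transferred colon 4 of them were called higher than in non-transferred colon, with Coq8a at 1.12, Coq9 at 0.33 and Coq10a at 0.45, and Coq7 (-0.52) lower (38.5% called, median 0.22).

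The shares called in the next 3 lists were 23.1, 21.7 and 26.7% in non-transferred against control colon, beside 45.5% of all genes, and 7.69, 8.70 and 26.7% in transferred against non-transferred colon, beside 31.2%, and the difference from all genes was not tested. Their medians were -0.15, 0.06 and 0.28 in the first comparison and 0.09, -0.02 and -0.26 in the second. In the citrate cycle 3 of 13 genes were called lower in non-transferred colon, Suclg2 (-0.65), Ogdh (-0.30) and Sucla2 (-0.34), and 1, Suclg1, was called higher in transferred against non-transferred colon (0.27). Among 23 regulators of respiratory chain genes 3 were lower and 2 higher in non-transferred colon. Esrrg, a nuclear receptor that drives oxidative genes in muscle, had 21.7, 27.8 and 30.9 in control, 2.94, 0.969 and 2.19 in non-transferred and 16.4, 23.1, 10.8, 6.67 and 30.7 in transferred colon (log2 fold change -3.24, SE 0.50, adjusted p = 0.000422). Its coactivator Ppargc1a had 170.5, 140.2 and 203, 118, 75.6 and 63.5 and 149.7, 141, 142, 136 and 134 (log2 fold change -1.02, SE 0.22, adjusted p = 0.00276), and both were called higher again in transferred against non-transferred colon (log2 fold change 2.50 and 0.75). Both were lower in every non-transferred library than in any other library. The counts of Esrrg were low, and it reached the filter's mean through the control and transferred libraries alone. The size of both its fold changes therefore rests on very few non-transferred reads. Polg2, the accessory subunit of the mitochondrial DNA polymerase, fell (-1.03), while Pprc1 (1.04) and Gabpa (0.31) rose. Of 15 genes of the outer membrane and import machinery 3 were called higher, Tomm20 (0.34), Timm23 (0.41) and Tomm40 (0.42), and the channel gene Vdac3 was called lower (-1.26). In transferred colon Vdac3 was higher than in non-transferred colon (0.68), and Tomm20 (-0.26), Vdac2 (-0.42) and Hspa9 (-0.28) were lower. No gene of these lists was called in transferred against control colon by limma.

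Promoters were read from RefSeq (GRCm38.p6, 250 bases before to 50 after each start), which matched 66 of the 98 nuclear genes. Each was searched on both strands for GCGCATGC (NRF1), CCGGAAG (ETS factors such as GABPA), AAGGTCA (estrogen-related receptors) and AAGATGG (YY1). NRF1 letters were in 13.6% of these promoters and 2.81% of all 27025 promoters, ETS letters in 24.2% and 9.12%, YY1 letters in 15.2% and 6.48%, and receptor letters in 6.06% and 4.66%. Promoters of 3 genes are shown with every match in capitals: Cox6a1, a common subunit called lower, Ndufaf4, the assembly factor called higher, and Cox7a1, a tissue-limited form that holds none of the 4. The promoter of Cox6a1 is chr5:115348909-115349208 (minus strand), that of Ndufaf4 chr4:24897833-24898132 (plus strand) and that of Cox7a1 chr7:30183921-30184220 (plus strand).
Cox6a1: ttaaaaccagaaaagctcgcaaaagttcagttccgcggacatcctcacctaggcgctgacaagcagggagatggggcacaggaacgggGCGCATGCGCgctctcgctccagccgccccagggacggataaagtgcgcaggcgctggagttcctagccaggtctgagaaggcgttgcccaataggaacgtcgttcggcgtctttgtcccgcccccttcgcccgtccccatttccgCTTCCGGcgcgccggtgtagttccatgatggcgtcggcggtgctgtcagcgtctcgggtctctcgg
Ndufaf4: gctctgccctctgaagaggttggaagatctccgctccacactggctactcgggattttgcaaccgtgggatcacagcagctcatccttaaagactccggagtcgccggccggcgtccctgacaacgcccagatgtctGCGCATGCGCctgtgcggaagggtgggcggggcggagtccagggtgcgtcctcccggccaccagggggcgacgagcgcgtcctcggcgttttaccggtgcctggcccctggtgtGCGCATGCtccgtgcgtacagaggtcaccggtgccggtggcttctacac
Cox7a1: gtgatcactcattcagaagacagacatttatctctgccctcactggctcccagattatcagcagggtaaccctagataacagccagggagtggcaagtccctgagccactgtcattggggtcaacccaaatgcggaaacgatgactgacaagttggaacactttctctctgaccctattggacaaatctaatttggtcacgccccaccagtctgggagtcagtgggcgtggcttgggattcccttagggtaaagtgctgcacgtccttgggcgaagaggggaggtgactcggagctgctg
Cox6a1 holds an NRF1 match, which reads on both strands, and an ETS match, and Ndufaf4 holds the NRF1 letters more than once, although the first fell and the second rose in non-transferred colon. A match describes the letters of the window and shows no binding.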

How the data were processed

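Colon RNA was sequenced as 11 stranded, polyadenylated libraries. Per the labels and the paper's methods, the authors aligned reads to GRCm39 (HISAT2 2.2.1 in the submitters' processing notes, which also name SAMtools 1.13, HTSeq 1.99.2 and DESeq2 1.40.2) and counted them per gene. The deposited signal values are these counts divided by a factor per library. Whole reads were recovered from them (all values within 0.05 of a whole number). The sources used here do not state the annotation release, the strand setting of the counter or the treatment of reads with several places, and the paper's methods name more than 1 aligner and platform without tying them to libraries.

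The members and the gene lists were chosen with earlier results of these data known. Genes were matched to GENCODE vM39 (99.2% of identifiers). A mean of 10 normalized counts or more was required, and the genes that passed were fitted with limma 3.58.1 (R 4.3.3, variance trend) on log2(normalized count + 1) with all 3 groups, with Benjamini-Hochberg adjustment. Libraries are numbered in the labels without naming the animal, and p-values therefore cover only the scatter among these libraries, which may be technical. Named genes were the mitochondrial mRNAs, the 6 called nuclear genes with the smallest adjusted p per direction, paralog pairs, Atp5if1, Sdha, Sdhb, Tfam, Cd4, and up to 3 called genes per list and direction; others are said to be chosen for their values. The alternatives were other pseudocounts, filters and scalings, edgeR 4.0.16, DESeq2 1.42.0, the threshold of the study, a replicate block and leaving out each library. The fits were tested on simulated data.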

Additional observations from a re-analysis of the deposited data

Results flagged for a closer look

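In 42 groups of values over the 5 transferred libraries (named genes and library sums), 2 had a library that stood far from the others by Dixon's criterion, where chance gives about 1 in 20. Both were transferred replicate 5. Its Cox7a1 count was 619.9 normalized counts, beside 142 to 269.6 in the other 4 transferred libraries. Its Sdhb count was 4738 normalized counts, beside 3538 to 3771. No explanation of either was tested.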

How the results depend on the processing

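Values are given in the order non-transferred against control, then transferred against non-transferred, then transferred against control. In the first comparison the nuclear genes called higher (2) became 1 with factors from nuclear genes, quantile normalization, no variance trend or the replicate block and 0 at the threshold of the study (unadjusted p under 0.05 and absolute log2 fold change above 0.6). Nuclear genes called lower (14) became 37 with factors from nuclear genes, 33 with quantile normalization, 22 with DESeq2 and 5 at the threshold of the study. Mitochondrial mRNAs called (4) became 8 with factors from nuclear genes or DESeq2, and 1 in the 5 mRNAs with few windows elsewhere, an alternative chosen after seeing the data that tests fewer genes. In the second comparison nuclear genes called higher (3) became 7, 5 and 5 with factors from nuclear genes, quantile normalization and DESeq2, and those called lower (2) became 1 with no filter, factors from nuclear genes, quantile normalization, no variance trend or only the groups compared, and 0 at the threshold of the study. Mitochondrial mRNAs called (0) became 2 with factors from nuclear genes, 1 with edgeR, DESeq2, no variance trend or only the groups compared, and 3 at the threshold of the study. In the third, nuclear genes called lower (0) became 1 at the threshold of the study. The cause was not tested. Leaving out 1 library gave 0 to 2, 5 to 20 and 0 to 8 for nuclear higher, nuclear lower and mitochondrial in the first comparison, 1 to 4, 0 to 4 and 0 to 2 in the second, and 0 to 1 nuclear lower in the third. The median log2 fold changes moved by less than the spread between libraries in all alternatives run. That spread was 0.15 for the nuclear and 0.22 for the mitochondrial median, large beside the medians of -0.18 and -0.45 in the first comparison. A shift within it therefore does not show a stable median. Without control replicate 3, mt-Nd5, whose value is the mitochondrial median of the full fit, moved from -0.45 to -0.25. No named call changed sign.

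Equal replicate numbers gave correlations of -0.10 to 0.39. Unequal numbers were not compared, so these values cannot tell whether equally numbered libraries share more than a number. With the replicate block the counts for nuclear higher, nuclear lower and mitochondrial were 1, 14 and 4 in the first comparison, 2, 6 and 1 in the second, and 0, 5 and 0 in the third. Depth was even (18214741 to 19178986 reads), and among the respiratory chain genes it limits Cox8b, Cox6a2, Cox4i2 and Ndufa4l2 most.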
